A study of Homo sapiens with 24 samples.

Results

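JUN, JUNB, JUND and ATF3 encode basic leucine zipper transcription factors, and their transcripts were followed over EGF time in MCF10A cells after 3 transfections. MCF10A is an established human mammary epithelial line that is not tumorigenic and depends on EGF for growth. Each of the 4 genes was read through the probe set whose only gene symbol in the probe annotation was that gene, and each had 1 such probe set, so the 4 genes stood among 18417 genes with a probe set of their own. The probe sets were 7916609 for JUN, 8026047 for JUNB, 8035445 for JUND and 7909610 for ATF3. Total RNA was measured on 24 Affymetrix Human Gene 1.0 ST arrays, in 12 groups of 2 replicates that the labels call biological.

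The transfections, all with Oligofectamine, delivered an siRNA oligonucleotide against miR-20a (si-miR-20a), an siRNA oligonucleotide against miR-671-5p (si-miR-671), or a non-targeting one (control), and cells were sampled at 0, 30, 60 and 120 min of EGF. All groups therefore carried an oligonucleotide, and all had been grown in medium that itself contained EGF, with insulin, hydrocortisone, cholera toxin and horse serum. Whether cells were starved before EGF, and whether a group's replicates were transfected separately, is not given in the sources used here, so p-values measure the spread between these samples. The arrays held no unstimulated cells at 30, 60 or 120 min, so effects of EGF, of elapsed time and of handling cannot be told apart. Mature miRNAs were not measured in the values used here, and how far each oligonucleotide lowered its miRNA was not tested. A further oligonucleotide named in the protocol, directed at miR-212, is not analysed here. Values are of bulk RNA, in which fewer cells carrying a transcript and less of it per cell cannot be told apart.

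JUN, JUNB and JUND are the JUN-type subunits of AP-1, a dimer that binds DNA through paired basic leucine zippers. JUN-type proteins dimerise with one another, with FOS-type proteins and with ATF-type proteins, and the pairing sets whether the dimer prefers a TPA response element or a cAMP response element. EGF acts through its receptor and the ERK, JNK and p38 kinases, which both phosphorylate existing AP-1 proteins and switch on the genes of new ones within minutes as immediate early genes. JUN is the strongest activator of the family and can act on its own promoter, JUNB is a weaker activator that can restrain JUN, JUND is made in most cells also without stimulation, and ATF3 is a stress- and mitogen-induced member of the ATF/CREB family that can repress as a homodimer and pairs with JUN proteins.

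The mature miRNAs at which the oligonucleotides were directed are shown because they define the transfections. The capitals mark the seed, bases 2 to 8. For miR-20a the labels name no arm, and the 5p arm is shown. Sequences and positions are those of RefSeq for GRCh38.p14: hsa-miR-20a-5p lies at chr13:91351072-91351094 on the plus strand and hsa-miR-671-5p at chr7:151238449-151238471 on the plus strand. The 2 seeds differ.
hsa-miR-20a-5p: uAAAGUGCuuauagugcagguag
hsa-miR-671-5p: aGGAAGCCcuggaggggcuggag

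The promoter windows of the 4 genes are shown because JUN, JUNB and ATF3 moved together over EGF time, and because AP-1 and ATF dimers bind the motifs searched in them. Each window runs from 250 bases before to 50 bases after the start of the gene in RefSeq for GRCh38.p14, in the direction of transcription. They lie at chr1:58783998-58784297 on the minus strand for JUN, chr19:12791236-12791535 on the plus strand for JUNB, chr19:18281573-18281872 on the minus strand for JUND and chr1:212565157-212565456 on the plus strand for ATF3. Capitals mark matches on either strand to the cAMP response element TGACGTCA, to its 1-base variant TGACATCA that is known from the JUN promoter, to the CCAAT box and to the TATA box TATAAA. The ATTGG in the ATF3 window is a CCAAT box on the opposite strand.
JUN: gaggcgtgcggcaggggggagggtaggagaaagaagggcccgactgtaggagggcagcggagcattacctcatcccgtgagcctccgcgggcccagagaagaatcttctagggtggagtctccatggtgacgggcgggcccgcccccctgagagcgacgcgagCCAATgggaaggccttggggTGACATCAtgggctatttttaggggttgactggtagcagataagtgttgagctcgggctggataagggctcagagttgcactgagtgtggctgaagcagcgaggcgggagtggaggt
JUNB: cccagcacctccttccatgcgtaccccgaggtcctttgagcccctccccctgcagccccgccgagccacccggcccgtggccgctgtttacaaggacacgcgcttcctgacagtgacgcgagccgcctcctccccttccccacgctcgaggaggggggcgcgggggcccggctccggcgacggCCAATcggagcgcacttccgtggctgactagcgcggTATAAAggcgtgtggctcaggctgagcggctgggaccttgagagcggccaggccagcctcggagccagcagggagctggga
JUND: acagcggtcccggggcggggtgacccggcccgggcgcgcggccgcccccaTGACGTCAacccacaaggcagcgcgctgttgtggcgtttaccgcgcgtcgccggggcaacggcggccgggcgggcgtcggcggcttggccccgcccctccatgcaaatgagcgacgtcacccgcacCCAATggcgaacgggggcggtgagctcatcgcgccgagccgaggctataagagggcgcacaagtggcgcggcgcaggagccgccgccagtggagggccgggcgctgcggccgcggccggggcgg
ATF3: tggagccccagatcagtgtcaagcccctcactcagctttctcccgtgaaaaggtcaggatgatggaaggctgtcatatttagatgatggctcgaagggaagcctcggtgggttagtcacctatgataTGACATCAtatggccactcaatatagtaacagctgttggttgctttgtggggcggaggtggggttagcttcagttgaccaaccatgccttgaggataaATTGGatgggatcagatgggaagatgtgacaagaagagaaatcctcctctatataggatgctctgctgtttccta

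The variant element TGACATCA stood 67 bases before the start in JUN and 123 bases before it in ATF3, and in neither of the other genes. It occurred in 2.61% of all 35116 RefSeq promoter windows of that length. JUND alone of the 4 windows held TGACGTCA, 200 bases before the start, a motif found in 1.85% of all windows. JUNB held TATAAA 31 bases before the start, as did 11.5% of all windows, and all 4 genes held a CCAAT box, as did 34.6% of all windows. The short element TGACG, which overlaps TGACGTCA, was matched once in JUN, once in JUNB and 3 times in JUND, against 24.6% of all windows, and the GC box GGGCGG 2 times in JUN, 6 times in JUND and once in ATF3, against 45% of all windows. The TPA response element TGACTCA (4.95% of all windows), the serum response factor's CArG box (1.29%) and the ETS site CCGGAA (17.2%) were matched in none of the 4 windows. RefSeq gives ATF3 a second start further downstream, at chr1:212615018 against 212565407 for the gene start. Its window was searched too and held only TATAAA, 230 bases before that start. No other part of ATF3 was searched, so motifs at any other start of the gene are not covered. A match says which letters are there and nothing about binding.

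**Figure D1:**
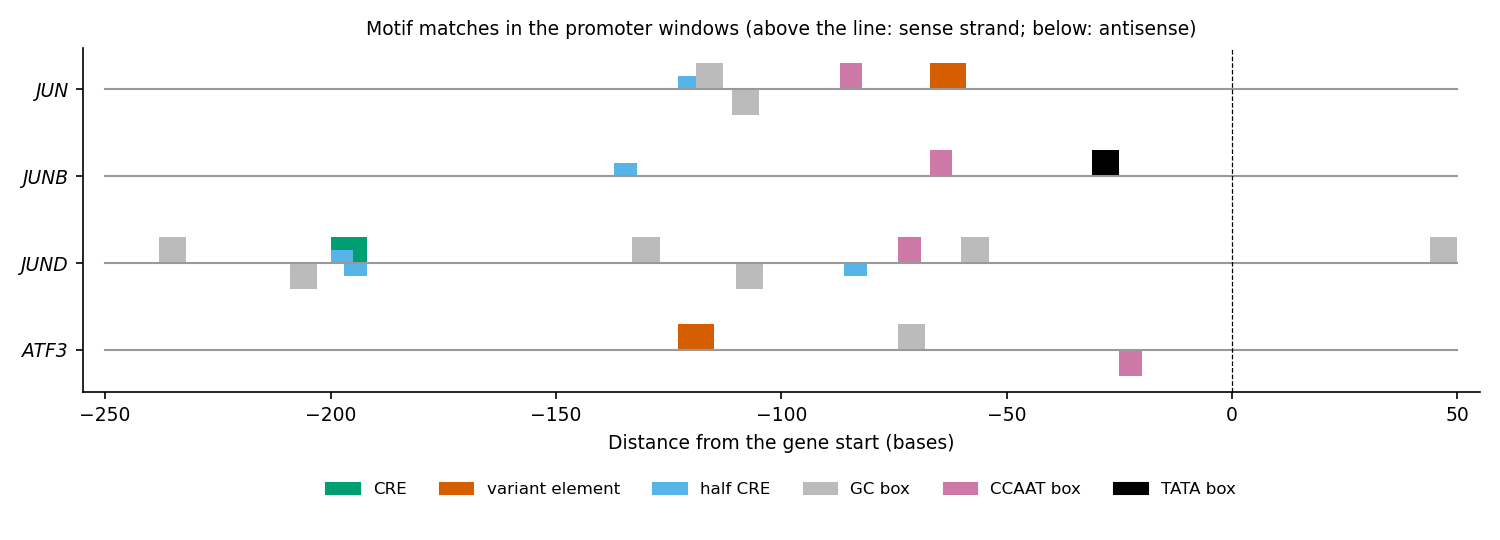
Motif matches in the promoter windows of JUN, JUNB, JUND and ATF3 by distance from the gene start in bases, with sense matches above each line and antisense matches below it; low blue boxes are TGACG. The variant element (orange) is in JUN and ATF3, and the cAMP response element (green, partly under TGACG) in JUND.

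The 24 arrays had nearly equal medians, 6.56 to 6.57 on the log2 scale, and replicates correlated at 0.975 to 0.990 over all 33297 probe sets. All 7 basal and all 5 pan-epithelial markers measured lay above the median gene, against 0 of 5 luminal, 3 of 9 mesenchymal and fibroblast and 2 of 7 blood and endothelial markers. Of these 2, CD14 averaged 8.04 and CDH5 10.2. Pan-epithelial markers averaged 10.29 in si-miR-20a, 10.27 in si-miR-671 and 10.13 in control, within an array range of 10.1 to 10.38, and luminal markers 6.28, 6.32 and 6.19, so control had the lowest mean of both classes. Basal markers averaged 11.24, 11.17 and 11.22 in the same transfections, mesenchymal and fibroblast markers 6.82, 6.73 and 6.80, and blood and endothelial markers 6.57, 6.55 and 6.55. The part of these markers in the results was not tested. The si-miR-671 arrays stood further from control late than early: the SD over genes of that difference was 0.206 and 0.235 at 0 and 30 min, and 0.332 and 0.311 at 60 and 120 min. Averages over transfections or times are therefore also given without those arrays or times where that moved a call.

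JUN, JUNB and ATF3 rose within 30 min of EGF, all 3 stayed up at 60 min and had come part of the way down by 120 min, and ATF3 moved most. Averaged over the transfections, ATF3 was 10.7-fold and JUN 3.73-fold higher at 30 min than at 0 min, JUNB 2.07-fold and JUND 1.33-fold. The 0 min level of ATF3 lay at the 4.69th percentile of all genes and was not tested against background, so its folds and log2 changes have an uncertain base. A gene was called changed when its adjusted p in limma, over all 19460 probe sets tested, lay under 0.05. All 4 genes were called higher at each of the 3 times, where 0.725%, 2.16% and 7.13% of all probe sets were called higher at 30, 60 and 120 min. JUND alone of the 4 lost its calls at all 3 times when the si-miR-671 arrays were left out of the average.

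**Figure D2:**
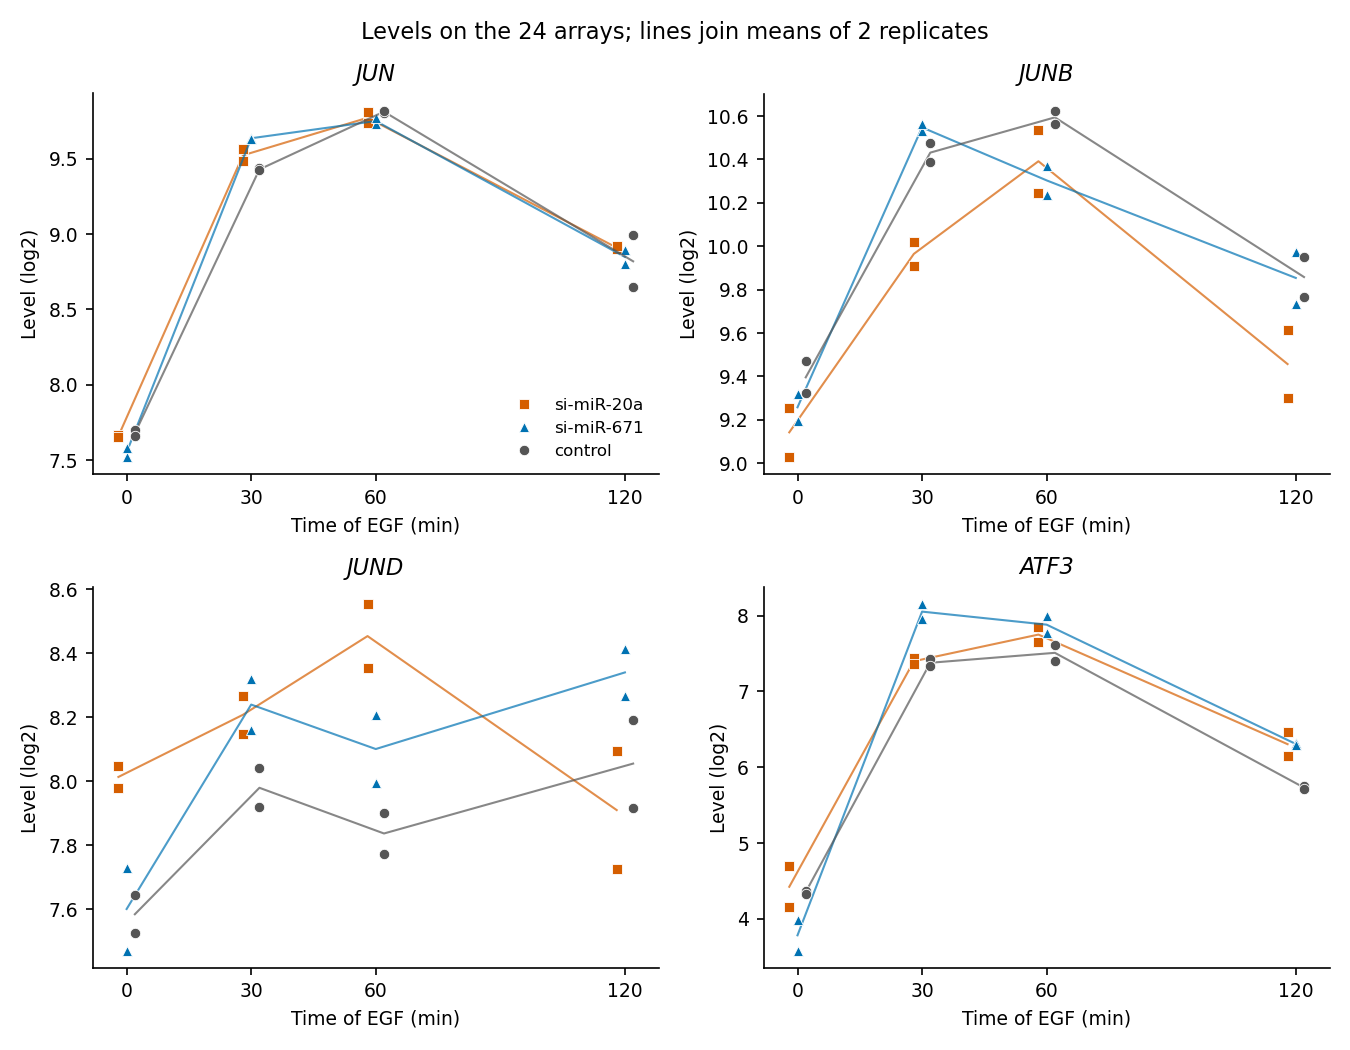
Levels of JUN, JUNB, JUND and ATF3 (log2) on each of the 24 arrays by time of EGF in minutes; points are arrays, lines join the means of 2 replicates, and transfections are drawn side by side at each time. JUN and ATF3 lay above all their 0 min values at every later time, while the group means of JUND spanned 0.87.

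JUN, the subunit that pairs with FOS in the classical AP-1 dimer, had the tightest replicates of the 4 genes, with a pooled SD within groups of 0.078. In si-miR-20a cells its log2 level was 7.67 and 7.65 at 0 min, 9.56 and 9.48 at 30 min, 9.81 and 9.74 at 60 min, and 8.90 and 8.92 at 120 min. In si-miR-671 cells it was 7.52 and 7.58 at 0 min, 9.64 and 9.63 at 30 min, 9.73 and 9.77 at 60 min, and 8.80 and 8.90 at 120 min. In control cells it was 7.70 and 7.66 at 0 min, 9.44 and 9.42 at 30 min, 9.81 and 9.82 at 60 min, and 8.99 and 8.65 at 120 min. No array at 30, 60 or 120 min overlapped the 0 min arrays of any transfection, and the levels at 60 min fell within 9.73 to 9.82 in all 3. The averaged change against 0 min was 1.90 at 30 min (adjusted p = 3.2e-12), 2.15 at 60 min (6.3e-13) and 1.23 at 120 min (4e-10), each ± 0.053 (SE, n = 6 against 6). Each was higher in 3 of 3 transfections, at the smallest p, 0.0093, that an exact two-sided permutation of times within transfections can give. JUN was called higher at all 3 times within each transfection as well.

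JUNB, which as a partner of FOS proteins activates less than JUN does, changed by less than JUN in each transfection at each time. In si-miR-20a cells its log2 level was 9.26 and 9.03 at 0 min, 10.02 and 9.91 at 30 min, 10.54 and 10.25 at 60 min, and 9.61 and 9.30 at 120 min. In si-miR-671 cells it was 9.32 and 9.20 at 0 min, 10.53 and 10.57 at 30 min, 10.24 and 10.37 at 60 min, and 9.73 and 9.98 at 120 min. In control cells it was 9.47 and 9.32 at 0 min, 10.48 and 10.39 at 30 min, 10.62 and 10.56 at 60 min, and 9.95 and 9.76 at 120 min. Every array at 30 and 60 min lay above every 0 min array, whereas at 120 min the lower si-miR-20a array lay under the 0 min control arrays. The averaged change was 1.05 at 30 min (adjusted p = 5e-07), 1.16 at 60 min (6.8e-08) and 0.46 at 120 min (0.00075), each ± 0.076 (SE). Higher in 3 of 3 transfections each time, JUNB also reached the smallest exact p of 0.0093 at all 3 times.

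JUND, the subunit that most cells express without a stimulus, had the smallest EGF changes of the 4 genes at each time in the average over transfections. In si-miR-20a cells its log2 level was 8.05 and 7.98 at 0 min, 8.27 and 8.15 at 30 min, 8.55 and 8.35 at 60 min, and 8.09 and 7.73 at 120 min. In si-miR-671 cells it was 7.73 and 7.47 at 0 min, 8.32 and 8.16 at 30 min, 7.99 and 8.21 at 60 min, and 8.27 and 8.41 at 120 min. In control cells it was 7.64 and 7.52 at 0 min, 8.04 and 7.92 at 30 min, 7.90 and 7.77 at 60 min, and 8.19 and 7.92 at 120 min. The pooled SD of JUND within groups was 0.141, and the si-miR-20a arrays at 0 min overlapped the control arrays at 30 min. The averaged change was 0.41 at 30 min (adjusted p = 0.023), 0.40 at 60 min (0.012) and 0.37 at 120 min (0.0065), each ± 0.081 (SE), and it was higher in 3, 3 and 2 of 3 transfections. Exact two-sided permutation gave p = 0.0093, 0.0093 and 0.046.

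Over the control and si-miR-20a arrays alone, the JUND change was 0.29 (adjusted p = 0.65), 0.35 (0.11) and 0.18 (0.31) at 30, 60 and 120 min, and none was called. The 30 min call was also lost without any single one of replicate 2 of control at 0 min, replicate 1 of control at 30 min, replicate 2 of si-miR-671 at 0 min, replicate 1 of si-miR-671 at 30 min, either si-miR-20a replicate at 0 min or replicate 1 of si-miR-20a at 30 min, at adjusted p of 0.054 to 0.1. The 60 min call was lost without replicate 2 of si-miR-671 at 60 min (change 0.36, adjusted p = 0.052). JUN, JUNB and ATF3 stayed called at all 3 times without the si-miR-671 arrays, with changes of 1.81, 2.12 and 1.20 for JUN, 0.93, 1.22 and 0.39 for JUNB, and 2.998, 3.24 and 1.63 for ATF3. Without those arrays 0.488%, 2.05% and 9.59% of all probe sets were called in either direction at the 3 times.

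ATF3, which forms dimers with JUN proteins and as a homodimer represses, had the largest changes of the 4 genes. In si-miR-20a cells its log2 level was 4.69 and 4.15 at 0 min, 7.44 and 7.36 at 30 min, 7.84 and 7.65 at 60 min, and 6.46 and 6.14 at 120 min. In si-miR-671 cells it was 3.99 and 3.58 at 0 min, 8.15 and 7.96 at 30 min, 7.99 and 7.77 at 60 min, and 6.32 and 6.29 at 120 min. In control cells it was 4.37 and 4.34 at 0 min, 7.42 and 7.33 at 30 min, 7.61 and 7.40 at 60 min, and 5.75 and 5.72 at 120 min. The 6 arrays at 0 min reached at most 4.69, under the array medians of 6.56 to 6.57, and no detection call accompanied the values used, so whether ATF3 RNA was above background before EGF was not tested. The averaged change was 3.42 at 30 min (adjusted p = 4.2e-12), 3.52 at 60 min (2e-12) and 1.93 at 120 min (2.9e-09), each ± 0.097 (SE). By size of the rise, ATF3 ranked 4 of 19460 probe sets at 30 min, 5 at 60 min and 18 at 120 min. Its 11.5-fold rise at 60 min compared with 4.43-fold for JUN, 2.24-fold for JUNB and 1.32-fold for JUND. ATF3 was higher at each time in 3 of 3 transfections, at the smallest exact p of 0.0093.

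Within single transfections, JUN and ATF3 were called higher at all 3 times in si-miR-20a, si-miR-671 and control cells alike. JUNB was called higher at 30 and 60 min in all 3, and at 120 min in si-miR-671 cells, while at 120 min within control it missed the threshold (adjusted p = 0.086) but passed with a trended prior (0.033). The JUNB response itself was not called different from control in either transfection (moderated F, adjusted p = 0.99 for si-miR-20a and 0.71 for si-miR-671). JUND was called in 1 of the 9 comparisons, si-miR-671 at 120 min. At 30 min within si-miR-671 it missed the threshold (adjusted p = 0.063) but passed with a trended prior (0.026) or a replicate block (0.024). Among probe sets with a mean of at least 6 it passed too (0.038). The trended prior called 119 and the block 113 of 19460 probe sets there, and the filter 109 of 13790. The share of all probe sets called higher was 0.365%, 0.889% and 4.49% within si-miR-20a at 30, 60 and 120 min, 0.560%, 1.28% and 3.22% within si-miR-671, and 0.329%, 0.755% and 2.17% within control. The smallest p that an exact test of 2 arrays against 2 can give is 0.33, so these calls depend on a spread estimated from all 12 groups together.

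The JUN change was 1.86, 2.11 and 1.25 within si-miR-20a at 30, 60 and 120 min, 2.08, 2.20 and 1.30 within si-miR-671, and 1.75, 2.14 and 1.14 within control, each ± 0.091 (SE). The JUNB change was 0.82, 1.25 and 0.31 within si-miR-20a, 1.29, 1.05 and 0.60 within si-miR-671, and 1.04, 1.20 and 0.46 within control, each ± 0.13. JUNB thus peaked at 30 min in si-miR-671 cells and at 60 min in the other transfections, a difference in time of peak that was not tested by itself. At 120 min its adjusted p was 0.17, 0.013 and 0.086 in si-miR-20a, si-miR-671 and control, and the si-miR-671 call was lost without replicate 2 at 0 min (0.13) or replicate 2 at 120 min (0.12). The JUNB call at 30 min within si-miR-20a was lost without replicate 2 at 0 min (adjusted p = 0.14) and without replicate 1 (0.12) or 2 (0.06) at 30 min.

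The JUND change was 0.19, 0.44 and -0.10 within si-miR-20a, 0.64, 0.50 and 0.74 within si-miR-671, and 0.40, 0.25 and 0.47 within control, each ± 0.14. The JUND rise at 120 min within si-miR-671 (adjusted p = 0.0047) missed the threshold without replicate 2 at 0 min (0.078) or replicate 2 at 120 min (0.051). The ATF3 change was 2.97, 3.32 and 1.88 within si-miR-20a, 4.27, 4.10 and 2.52 within si-miR-671, and 3.02, 3.15 and 1.38 within control, each ± 0.17. These ATF3 changes are against 0 min means of 4.42, 3.78 and 4.35, levels not known to be above background.

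**Figure D3:**
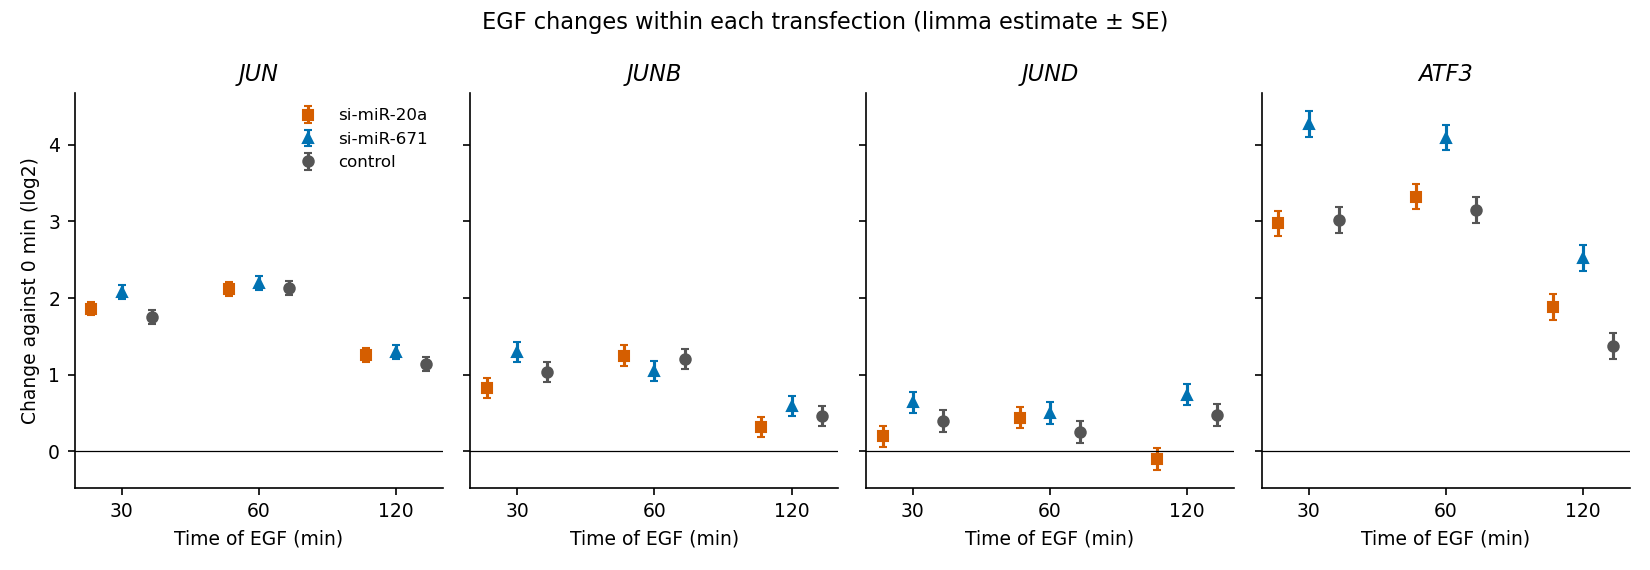
EGF change of each gene against 0 min (log2) within si-miR-20a, si-miR-671 and control cells at 30, 60 and 120 min; points are limma estimates and bars their SE. ATF3 changes in si-miR-671 cells (4.27, 4.10 and 2.52) lay above those of the other transfections, and JUN changes lay close together.

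The size of the changes kept an order. ATF3 changed by more than JUN, and JUN by more than JUNB and JUND, in each transfection at each time. At 30 min the JUN change minus the ATF3 change was -1.11 in si-miR-20a, -2.18 in si-miR-671 and -1.27 in control on the log2 scale. JUN exceeded JUNB at 30 min by 1.04, 0.79 and 0.72, and JUNB exceeded JUND by 0.63, 0.65 and 0.64, in the same transfections. At 120 min JUNB and JUND no longer kept 1 order: JUNB minus JUND was 0.42 in si-miR-20a, -0.14 in si-miR-671 and -0.0084 in control.

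Between 30 and 60 min JUN alone of the 4 was called, higher at 60 min by 0.25 ± 0.053 (SE, adjusted p = 0.035), a comparison in which 0.889% of all probe sets were called higher. That call was lost when any 1 of the 12 arrays at 30 or 60 min was left out, at adjusted p of 0.06 to 0.13, and when all probe sets of the array were tested (0.06). JUNB differed by 0.12 (adjusted p = 0.72), JUND by -0.012 (0.98) and ATF3 by 0.10 (0.83), with 95% intervals of -0.047 to 0.28, -0.18 to 0.16 and -0.10 to 0.31. At 120 min against 60 min JUN, JUNB and ATF3 were called lower, as were 2.30% of all probe sets. JUN fell by 0.92 (adjusted p = 3.3e-08), JUNB by 0.71 (2.6e-05) and ATF3 by 1.60 (6.1e-08), each in 3 of 3 transfections with an exact two-sided p of 0.0093, the smallest possible. JUND differed by -0.029 ± 0.081 (adjusted p = 0.9), with a 95% interval of -0.20 to 0.14.

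The part of the 60 min rise still present at 120 min, on the log2 scale, was 57.2% ± 3.24 for JUN, 53.9% ± 9.25 for ATF3 and 40.3% ± 16 for JUNB (SD, n = 3 transfections). For JUNB it was 25.2% in si-miR-20a, 57% in si-miR-671 and 38.6% in control, and for ATF3 56.6%, 61.6% and 43.6%. JUN kept more of its rise than JUNB in 3 of 3 transfections, by 34, 1.96 and 14.9 percentage points in si-miR-20a, si-miR-671 and control, and ATF3 more than JUNB in 3 of 3, by 31.4, 4.58 and 5.06. JUN kept more than ATF3 in 2 of 3. These differences between genes were not tested.

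Against control, si-miR-20a cells had less JUNB and more JUND on average over the 4 times, and no call was made for JUN or ATF3. In this comparison 24.5% of all probe sets were called, and with 4 genes nothing is read from a count of 2. JUNB was 0.33 ± 0.066 lower on the log2 scale in si-miR-20a (SE, n = 8 against 8, adjusted p = 0.0016), or 0.795-fold, and lower at 4 of 4 times. An exact two-sided permutation within times gave p = 0.0015, the smallest possible. By time the JUNB difference was -0.25 at 0 min, -0.47 at 30 min, -0.20 at 60 min and -0.40 at 120 min, and the replicates of si-miR-20a lay below both control replicates each time. None of these single-time differences was called (adjusted p = 0.39, 0.055, 0.45 and 0.067).

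JUND was 0.28 ± 0.070 higher in si-miR-20a than in control on average (adjusted p = 0.0078), higher at 3 of 4 times, with an exact two-sided p of 0.029. The difference was 0.43 at 0 min, 0.23 at 30 min, 0.62 at 60 min and -0.15 at 120 min. Only that at 60 min was called (adjusted p = 0.017), and it was lost without replicate 1 (0.062) or 2 (0.15) of control or replicate 1 of si-miR-20a (0.13) at 60 min, and when only the arrays compared were fitted (0.22). The fit of only the arrays compared called 0 of all 19460 probe sets at 60 min, so its loss of JUND is not particular to that gene. Averaged over 60 and 120 min alone the JUND difference was 0.24 and was not called (adjusted p = 0.13), and over 0 and 30 min alone it was 0.33 and called (0.043). Of all probe sets, 16.7% and 12% were called in these 2 averages.

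ATF3 was 0.23 ± 0.084 higher in si-miR-20a on average (adjusted p = 0.066, higher at 4 of 4 times, exact two-sided p = 0.046). Averaged over 60 and 120 min alone it was 0.41 higher and called (adjusted p = 0.03), and over 0 and 30 min alone 0.045 higher (0.87). These averages called 16.7% and 12% of all probe sets. The 4-time average also passed among probe sets with a mean of at least 6 (adjusted p = 0.044), and without replicate 2 of si-miR-20a at 0 min (0.29, adjusted p = 0.012) or at 120 min (0.27, 0.041). At single times the difference was called at 120 min, at 0.57 ± 0.17 (adjusted p = 0.045), where both si-miR-20a arrays (6.46 and 6.14) lay above both control arrays (5.75 and 5.72). That call was lost without any 1 of those 4 arrays: the adjusted p was 0.14 and 0.15 without control replicates 1 and 2, and 0.21 and 0.071 without si-miR-20a replicates 1 and 2. JUN differed by 0.032 on average (adjusted p = 0.69), with a 95% interval of -0.066 to 0.13. At 0, 30, 60 and 120 min 3.32%, 5.10%, 6.19% and 10.1% of all probe sets were called between si-miR-20a and control.

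Against control, si-miR-671 cells showed no call for any of the 4 genes by limma, averaged over times or at any 1 time. ATF3 was 0.26 ± 0.084 higher on average (adjusted p = 0.051, unadjusted p = 0.0073) and JUND 0.21 ± 0.070 higher (adjusted p = 0.064, unadjusted p = 0.01). JUND was higher at 4 of 4 times with an exact two-sided p of 0.011, and ATF3 at 3 of 4 times with an exact p of 0.13. The JUND difference was only 0.016 at 0 min, where the arrays overlapped. It was 0.26, 0.26 and 0.28 at 30, 60 and 120 min, each ± 0.14. JUNB differed by -0.079 (adjusted p = 0.53, 95% interval -0.22 to 0.061) and JUN by 0.012 (0.92, -0.085 to 0.11). In the averaged comparison 14.5% of all probe sets were called, and at 0, 30, 60 and 120 min 0.540%, 0.457%, 8.18% and 5.58%. ATF3 lay just over the threshold, and ATF3, JUND or both passed it under 6 other settings of the fit. Those settings called 2814 to 3039 of 19460 probe sets, or 3037 of 13790 among probe sets with a mean of at least 6.

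The ATF3 means of si-miR-671 lay on opposite sides of control before and after EGF. At 0 min the si-miR-671 mean was 0.57 lower than that of control (adjusted p = 0.21), and at 30, 60 and 120 min it was 0.67 (0.13), 0.37 (0.21) and 0.58 (0.063) higher, each ± 0.17. At all 4 times the si-miR-671 arrays lay clear of the control arrays, but none of these differences was called. Averaged over 60 and 120 min alone, ATF3 was 0.47 higher in si-miR-671 (adjusted p = 0.014), and over 0 and 30 min alone 0.052 higher (0.91). Of all probe sets, 15.4% and 2.81% were called in these averages.

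**Figure D4:**
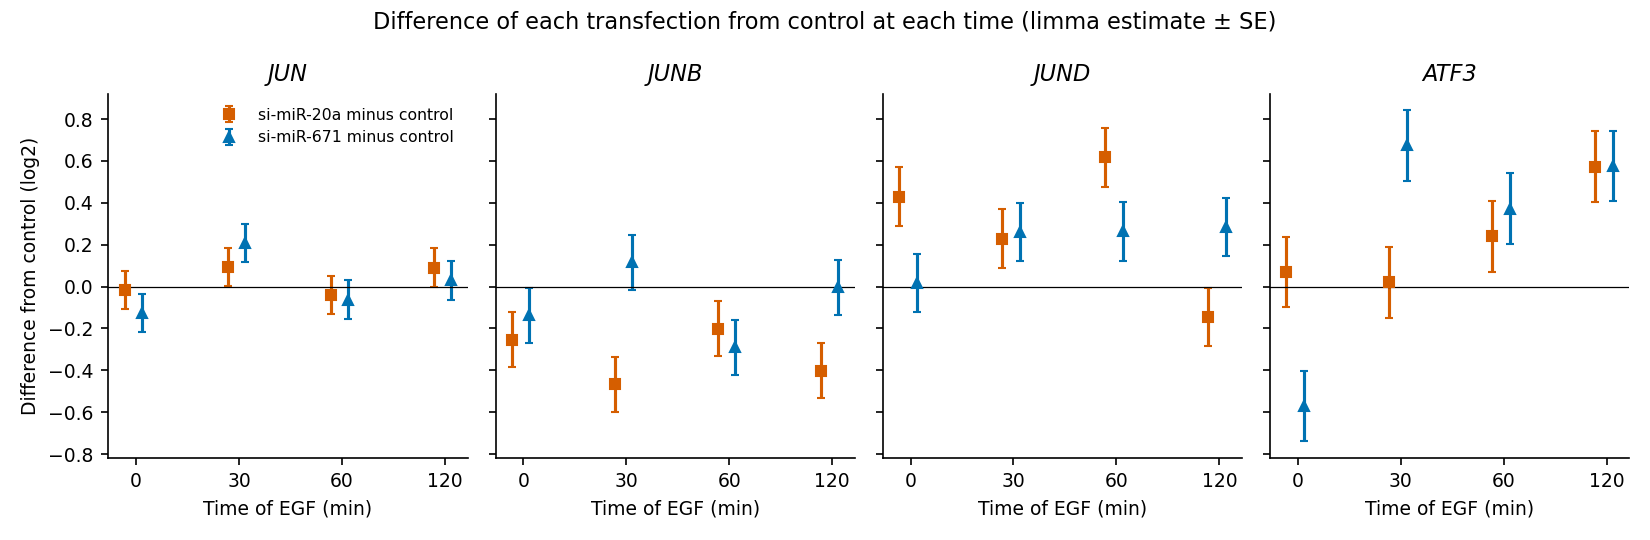
Difference of si-miR-20a and of si-miR-671 from control (log2) at each time of EGF for JUN, JUNB, JUND and ATF3; points are limma estimates and bars their SE. JUNB lay below 0 at all 4 times in si-miR-20a, and ATF3 in si-miR-671 was -0.57 at 0 min and 0.67 at 30 min.

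Set against each other, si-miR-20a and si-miR-671 differed in JUNB, which was 0.25 ± 0.066 lower in si-miR-20a (adjusted p = 0.041, lower at 3 of 4 times, exact two-sided p = 0.039), where 4.54% of all probe sets were called. This call held without any 1 of only 4 of the 16 arrays. It was lost, at adjusted p of 0.061 to 0.11, without any 1 of both si-miR-671 replicates at 0, 30 and 60 min, replicate 2 of si-miR-671 at 120 min, replicate 2 of si-miR-20a at 0, 60 and 120 min and both si-miR-20a replicates at 30 min. It was also lost over 60 and 120 min alone (-0.15, adjusted p = 0.53), where 1.13% of all probe sets were called. JUN, JUND and ATF3 differed by 0.020 (0.87), 0.076 (0.64) and -0.037 (0.87). The 3 averaged comparisons share arrays, so they are not independent of one another.

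Whether the EGF response itself differed from control was tested for each gene with limma's moderated F over the 3 times. In the fit without a replicate block neither transfection had a call among the 4 genes, where 0.0154% of all probe sets were called for si-miR-20a and 0.0514% for si-miR-671. The smallest p was that of ATF3 in si-miR-671, whose response was 1.24, 0.94 and 1.15 larger on the log2 scale than in control at 30, 60 and 120 min, each ± 0.24 (F = 11.4, unadjusted p = 0.00042, adjusted p = 0.14). Those 3 differences share the 0 min arrays, on which the ATF3 mean was 3.78 in si-miR-671 and 4.35 in control. That gap of -0.57 enters each of them, and neither level was tested against background. JUND in si-miR-20a had F = 5.43 (unadjusted p = 0.01, adjusted p = 0.85), with differences of -0.20, 0.19 and -0.57, each ± 0.20. The other 6 tests had adjusted p of 0.64 to 0.99.

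Over the 12 group means, which share the EGF time course, the profile of ATF3 was closest to that of JUN and the reverse (r = 0.985), with 0 of 18416 other genes nearer to either. JUN and JUNB correlated at 0.917, ATF3 and JUNB at 0.911, and JUND with the other 3 at 0.501 to 0.662. Leaving the 4 genes aside, those most like JUN were KLF6 (r = 0.979) and CCN1 (0.979), an early zinc finger factor and a secreted matrix protein, DUSP5 (0.977), an ERK phosphatase, IER2 (0.970) and the prostaglandin receptor gene PTGER4 (0.967). Those most like ATF3 were IER2 (0.976), KLF6 (0.975), CCN1 (0.971), PPP1R15A (0.967), which encodes a regulatory subunit of a stress-response phosphatase, and PTGER4 (0.958). Those most like JUNB were IER3 (0.973), DUSP5 (0.941), the zinc finger factor gene EGR1 (0.938), IER2 (0.937) and BHLHE40 (0.933). The genes most like JUND were ATP2A1, AVP, B4GALNT3, UPK1A-AS1 and RNF182, at 0.915 to 0.887 over group means but only 0.256 to 0.836 over the 24 arrays.

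Of 14 other AP-1 subunits and small basic leucine zipper partners measured, 4 were called higher at 30 min, 5 at 60 min and 6 at 120 min, with 0, 0 and 1 lower. Over all probe sets 0.725%, 2.16% and 7.13% were called higher at these times and 0.0411%, 0.493% and 6.27% lower. The median of the 14 change was 0.039, 0.084 and 0.26, against -0.0078, 0.0020 and 0.0079 over all probe sets tested. FOSB and FOS, the FOS-type partners of JUN, rose by 5.64 ± 0.15 and 3.98 ± 0.085 at 30 min (adjusted p = 1.4e-12 and 1.7e-13), and FOSL1, a slower FOS-type partner, by 1.04 ± 0.076 (5.3e-07). At 60 min their changes were 5.73, 3.14 and 1.74. At 120 min they were 4.74 for FOSB, 0.69 for FOS and 2.23 for FOSL1, beside 1.23 for JUN. Of the times sampled, the highest change averaged over transfections was that at 30 min for FOS, 60 min for FOSB, JUN, JUNB and ATF3, and 120 min for FOSL1. JUNB and ATF3 were not called different between 30 and 60 min (adjusted p = 0.72 and 0.83). The JUN call between these times was lost with any 1 of their arrays left out, and FOSB changed by 5.64 and 5.73. A peak at 60 rather than 30 min is thus not established for these genes. Within si-miR-671 cells the changes of JUNB and ATF3 were highest at 30 min. ATF2, a constitutive partner of JUN, had no call at any time.

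**Figure D5:**
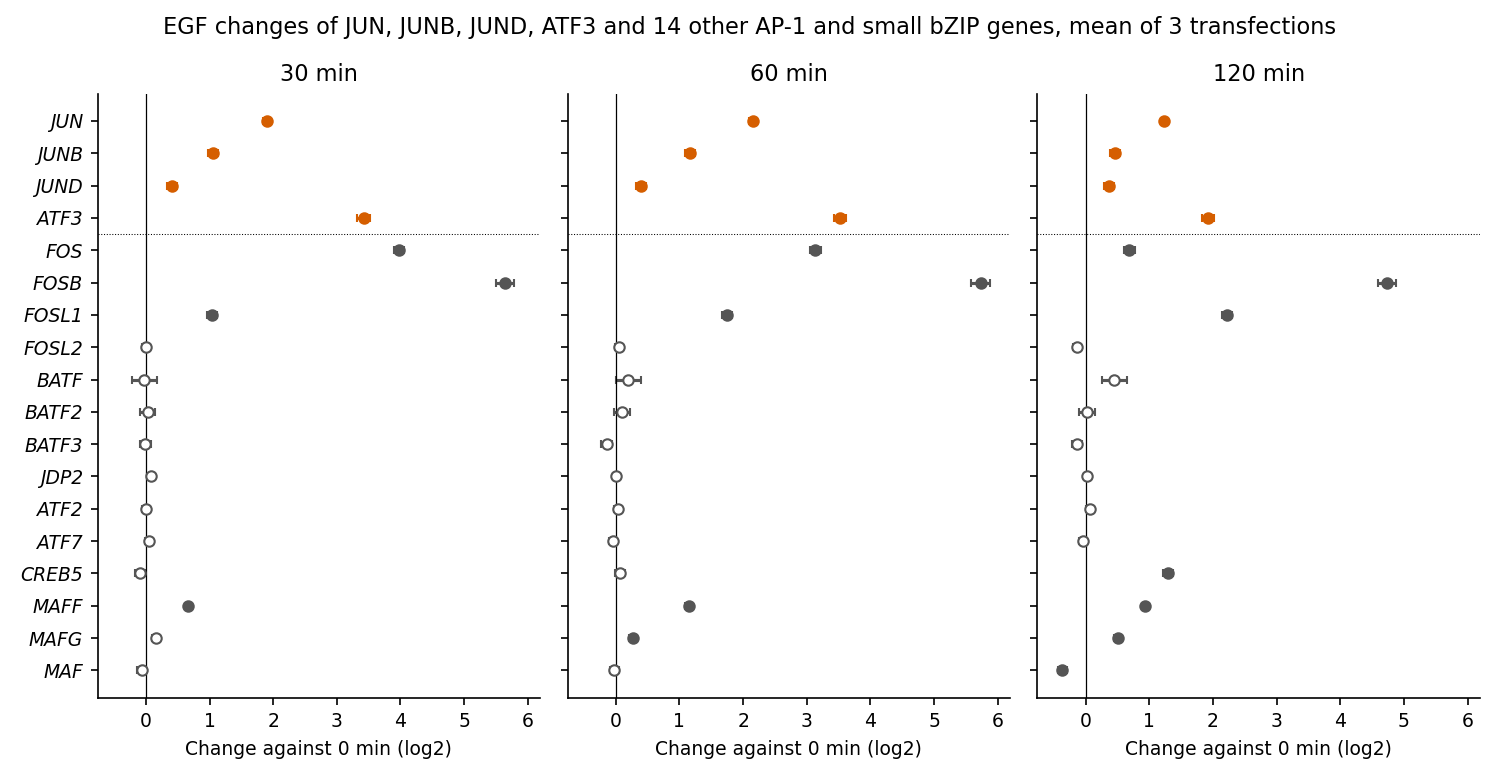
Change against 0 min (log2, mean of 3 transfections, bars are SE) at 30, 60 and 120 min for JUN, JUNB, JUND and ATF3 (orange) and 14 other AP-1 and small basic leucine zipper genes (grey); filled points passed limma's adjusted p under 0.05. The changes of FOS, FOSB, JUN, JUNB and ATF3 were smaller at 120 than at 60 min, and that of FOSL1 was larger. The change of FOS was already smaller at 60 than at 30 min.

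The other ATF, CREB and CEBP factors had 0 of 17 called at 30 and 60 min, and 1 higher and 3 lower at 120 min, where 7.13% of all probe sets were called higher and 6.27% lower. The 3 lower were NFIL3 (-0.80), CEBPD (-0.70) and DBP (-0.24), and ATF4, the stress factor that is known to raise ATF3, was not among them. Of 21 genes for JNK, p38 and ERK pathway kinases, 0 were called at 30 and 60 min, and 2 higher and 2 lower at 120 min, beside the same shares of all probe sets, among them MAP3K1 (0.47) and MAP2K3 (0.35) higher and MAP3K5 (-0.30) lower. The median changes at the 3 times were 0.012, 0.00099 and 0.036 for the first list and -0.0093, 0.029 and 0.032 for the kinases.

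Genes for the degradation of JUN and the dephosphorylation of its kinases had 3, 4 and 4 of 18 called higher at 30, 60 and 120 min, and 0, 0 and 1 lower. The shares of all probe sets were 0.725%, 2.16% and 7.13% called higher and 0.0411%, 0.493% and 6.27% lower. The median change of the 18 was -0.011, 0.069 and 0.014, against -0.0078, 0.0020 and 0.0079 over all probe sets tested. Called higher at 30 min were DUSP1 (2.53 ± 0.052), DUSP4 (0.41 ± 0.047), both kinase phosphatases, and TRIB1 (1.68 ± 0.082), an adaptor of the COP1 ubiquitin ligase. FBXW7, a ubiquitin ligase subunit that binds phosphorylated JUN, was the 1 lower at 120 min (-0.31 ± 0.069).

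Of 22 reported AP-1 target genes, 4, 7 and 11 were higher at 30, 60 and 120 min, with 0, 0 and 2 lower. Their median change was 0.15, 0.17 and 0.19, against -0.0078, 0.0020 and 0.0079 over all probe sets tested. Of all probe sets, 0.725%, 2.16% and 7.13% were called higher at these times and 0.0411%, 0.493% and 6.27% lower. The growth factor gene HBEGF rose by 0.97, 1.62 and 1.36 at the 3 times and the urokinase receptor gene PLAUR by 1.03 and 1.74 at 60 and 120 min. The cytokine gene IL6 was higher at 30 min (0.88) and 60 min (0.74) and lower at 120 min (-0.74). Of 15 stress-response genes listed beside ATF3, 3, 4 and 6 were higher and 0, 1 and 2 lower, beside the same shares of all probe sets. The median change of the 15 was 0.040, 0.078 and 0.12. PPP1R15A, GADD45A and GADD45B were higher by 0.97, 0.64 and 1.01 at 30 min, while DDIT4, an inhibitor of mTOR signalling, was lower by 0.54 at 60 min and 1.97 at 120 min.

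In si-miR-20a against control the same lists had calls in both directions, where 11.9% of all probe sets were called higher and 12.7% lower. The AP-1 list had 2 higher and 1 lower of 14, the ATF, CREB and CEBP list 2 and 5 of 17, and the kinases 4 and 7 of 21. The degradation list had 1 and 6 of 18, the targets 5 and 8 of 22 and the stress-response genes 6 and 4 of 15. NFIL3 (-1.25 ± 0.089), TRIB2 (-0.98 ± 0.061) and IL6 (-0.93 ± 0.070) were the lowest named, and SPRR1B, a keratinocyte envelope gene, the highest (0.97 ± 0.075). In si-miR-671, where 6.79% of all probe sets were called higher and 7.70% lower, they had 0 and 1, 1 and 4, 1 and 6, 1 and 4, 3 and 9, and 2 and 4, with IL6 (-1.10 ± 0.070), TRIB2 (-0.83 ± 0.061) and NFIL3 (-0.76 ± 0.089) again lowest among those named. MAFF (-0.20 ± 0.043), a small MAF partner, was the 1 AP-1 list gene lower with JUNB in si-miR-20a, and FOS, FOSB and FOSL1 were not called in either transfection.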

How the data were processed

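The authors deposited log2 values, 1 per probe set (transcript cluster) and array, whose base follows from their range, 0.749 to 13.2. Affymetrix Expression Console is named without a version, per the submitters' processing notes; how probe sets were summarised, background-corrected and normalized is not given in the sources used here. Values of all 24 arrays were used as deposited, without further normalization. Of 33297 probe sets, 19460 had 1 gene symbol in the annotation and were tested, 1754 had several and 12083 none.

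limma 3.58.1 in R 4.3.3 fitted 1 mean per group with no replicate block, then eBayes (12 residual and 2.57 prior degrees of freedom, prior SD 0.136), with Benjamini-Hochberg adjustment over the 19460 probe sets and calls at an adjusted p under 0.05; the code was tested on simulated data. Exact permutations ran within transfections (216 arrangements, 20 tests) or within times (1296 arrangements, 12 tests), and their p is unadjusted. The number of arrays limits the precision. Tables were made with pandas 2.3.3 and numpy 2.4.6, permutations with Python 3.11.15, and figures with matplotlib 3.10.9.

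Equal replicate numbers were not taken to pair the arrays: nothing in the labels says that they mark a shared culture or day, and over 66 pairs of groups the correlation of replicate differences ran from -0.57 to 0.55 (median 0.063), with 30 over 0.1. The 4 genes, the gene lists and most tests were chosen with earlier results of these data known. Named genes are the 4, the 5 genes nearest to each over group means, and up to 3 called members of a list per comparison by size; FOSL1, ATF2, ATF4 and FBXW7, and the list genes given at other times or in other comparisons, were named after their values were seen. Other settings were array normalization, a filter on dim probe sets, all probe sets, a trended prior, a replicate block, subsets of the arrays and leaving out each array.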

Additional observations from a re-analysis of the deposited data

How the results depend on the processing

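Limits: each group had 2 arrays, so single-time comparisons lean on the pooled spread, and small changes of JUND sit near it. The depth behind an array value is not known, and signal over background was not given. The calls of JUN, JUNB and ATF3 at 30, 60 and 120 min, averaged over transfections, held under each setting run, as did the falls of the 3 from 60 to 120 min and the lower JUNB of si-miR-20a averaged over times. The higher JUND of si-miR-20a, averaged over times, missed the threshold over 60 and 120 min alone and held otherwise. No member had another probe set with 1 gene symbol, so a reading from another probe set was not run. The cause of the shifts below was not tested, except that a setting with fewer arrays has fewer residual degrees of freedom and one with more or fewer probe sets another adjustment.

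Replicate numbers were not taken as pairing over all genes, but replicate 1 lay above replicate 2 in 12 of 12 groups for ATF3, 10 for JUND, 9 for JUNB and 7 for JUN. The replicate block added calls: 2 of the 4 genes for si-miR-671 against control averaged over times (ATF3, adjusted p = 0.0072, and JUND, 0.033), 1 at 30 min and 1 at 120 min (ATF3 at both), 1 for si-miR-20a at 30 min (JUNB), 2 at 120 min, and 1 for the difference of the EGF response of si-miR-671 (ATF3, F = 23.7, adjusted p = 0.02). With the block, 2847 of all 19460 probe sets were called for si-miR-671 averaged over times, 85 at 30 min and 1131 at 120 min. For si-miR-20a against control 996 were called at 30 min and 2019 at 120 min. Nothing is read from 2 of 4 genes. JUND within si-miR-671 at 30 and 60 min (0.024 and 0.049) and ATF3 of si-miR-20a averaged over times (0.011) also passed, and no call was lost. Whether the ATF3 response differed in si-miR-671 thus depended on the block.

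Averaged over times, si-miR-671 against control had 0 calls, but 1 with quantile normalization, with a trended prior, with only the arrays compared and over 60 and 120 min alone, and 2 among probe sets with a mean of at least 6. Of all 19460 probe sets the first 4 of these settings called 2814, 3039, 3010 and 2999, in that order. The filter called 3037 of 13790, so nothing is read from 1 or 2 of 4 genes. For si-miR-20a at 30 min the filter and the trended prior each gave 1 call in place of 0, and at 120 min 2 in place of 1. There the filter called 1309 of 13790 probe sets at 30 min and 2441 at 120 min. The trended prior called 1289 and 2339 of 19460. The filter gave 1 for si-miR-671 at 120 min in place of 0, where it called 1326 of 13790 probe sets. Testing all probe sets left 0 calls for 60 against 30 min, for si-miR-20a against si-miR-671 and for si-miR-20a at 120 min, where 1 had been made in each. Of all 33297 probe sets it called 212, 656 and 1729 in these comparisons. Fitting only the arrays compared left 0 of 3 calls within si-miR-20a at 30 and at 60 min, 0 of 4 within si-miR-671 at 120 min and 1 of 2 within control at 120 min. It left 0 of 1 for si-miR-20a at 60 and at 120 min and for si-miR-20a against si-miR-671, which also had 0 over 60 and 120 min alone. JUNB lost its calls at 30 and 60 min within si-miR-671 (adjusted p = 0.12 and 0.069) and within control (0.35 and 0.079) too. Of all 19460 probe sets, that setting called 7 and 6 within si-miR-20a, 14 and 50 within si-miR-671 and 10 and 25 within control at 30 and 60 min. At 120 min it called 1 within si-miR-671 and 39 within control. Between si-miR-20a and control it called 0 at 60 min and 44 at 120 min, and between si-miR-20a and si-miR-671 370.

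Leaving out 1 array at a time gave 0 to 2 calls for si-miR-671 against control averaged over times, 0 to 0 for 60 against 30 min, 0 to 1 for si-miR-20a at 60 and at 120 min and for si-miR-20a against si-miR-671, and 2 to 4 within si-miR-671 at 120 min. The 2 for si-miR-671 (JUND, adjusted p = 0.047, and ATF3, 0.024) came without its replicate 2 at 0 min, and JUND alone passed (0.039) without replicate 1 of control at 120 min.

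Direction changed only in differences that were not called. JUND at 60 against 30 min was 0.0515 without the si-miR-671 arrays, JUN was -0.00262 between si-miR-20a and si-miR-671 over 0 and 30 min alone and -0.0166 between si-miR-671 and control over 60 and 120 min alone, and JUND was -0.0386 between si-miR-20a and si-miR-671 there. With 1 array left out at a time, averaged JUND ran from -0.0477 to 0.0239 at 60 against 30 min and from -0.09 to 0.0328 at 120 against 60 min, and within si-miR-20a from -0.288 to 0.0808 at 120 min. For si-miR-20a against control, JUN ran from -0.0117 to 0.0747 averaged over times, -0.0384 to 0.00273 at 0 min and -0.0819 to 0.263 at 120 min, ATF3 from -0.2 to 0.339 at 0 min and -0.0245 to 0.065 at 30 min, and JUND from -0.33 to 0.039 at 120 min. For si-miR-671 against control, JUN ran from -0.0312 to 0.0551 averaged over times and -0.144 to 0.202 at 120 min, JUND from -0.113 to 0.146 at 0 min and JUNB from -0.126 to 0.118 at 120 min. ATF3 in si-miR-20a against si-miR-671 ran from -0.104 to 0.0304.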
